A study of Mus musculus with 4 samples.

Results

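The enzymes that build nucleotides, together with the serine and folate reactions that feed them, were followed in the mouse thymic lymphoma line T29 in which an inhibitor of Notch-dependent transcription could be induced. The set holds 35 genes chosen by name, with no difference between treatments in the rule. It and the other lists below were chosen with earlier results of these data known. Each gene was read by its probe set with the highest mean over the 4 arrays. Of these, 34 had a probe set (a group of array probes read as 1 value) that named 1 gene, and all 34 were above the filter on dim genes (a mean log2 value of 4.81), among 18193 genes with such a probe set and 11581 tested. Values are log2 expression levels from RMA, the usual background correction, normalization and summary of such probes. Impdh2 was not analysed here, since no probe set in the annotation used here named it alone.

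T29 is Ikaros-deficient, per the series' design text, and a lymphoma line can carry features of its single tumour of origin. All 4 samples were of this line and carried the retroviral construct MigR1-MLER, an inducible dominant-negative form of Mastermind, the co-activator that Notch needs at its target genes. Medium and supplements were the same for all. The 2 ethanol samples received the solvent for 24 h and the 2 4OHT samples 100 nM 4OHT for 24 h; 4OHT, 4-hydroxytamoxifen, is the ligand used to switch on oestrogen receptor fusions. Samples lacking the construct were not analysed here, so effects of 4OHT itself and of the construct cannot be told apart. Nothing in the labels tells whether the replicates were separate cultures, so a p-value here reflects the spread among these samples alone, and that spread may be technical.

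Purine rings are built stepwise on phosphoribosyl pyrophosphate (PRPP) up to IMP, which is then turned into AMP or GMP. Pyrimidine rings are made first and joined to PRPP afterwards, giving UMP and then CTP. Both routes use glutamine and aspartate, and purines also take glycine and carbon carried on folate, much of it derived from serine; ribonucleotide reductase and thymidylate synthase then supply DNA precursors. In dividing lymphocytes these routes run at a high rate, and many of their genes are known targets of MYC, with the serine and mitochondrial folate genes also known targets of ATF4.

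Genes of nucleotide, serine and folate synthesis were mostly lower after 4OHT, by modest amounts. With limma's moderated test at a Benjamini-Hochberg adjusted p under 0.05, 9 of the 34 members fell (26.5%) and none rose, against 3.57% of all tested genes called lower and 3.9% called higher. Since the members were chosen with earlier results of these data known, these shares describe the set and do not test it. The members were also brighter, with a median level of 10.74 against 8.27 over all tested genes. At an unadjusted p under 0.05, 23 members were lower and 2 higher, against 13.2% and 12.3% of all tested genes. The 9 were Shmt1, Mthfd1, Prps1, Pfas, Dhodh, Gart, Ppat, Dctpp1 and Umps, with changes from -0.73 to -0.45 on the log2 scale, that is 1.65-fold to 1.37-fold. A value is RNA of a whole culture, so fewer cells of a kind and less RNA per cell cannot be told apart. The change was below 0 for 30 of the 34 members (52.3% of all tested genes), and the members' median change was -0.43, against -0.01 over all tested genes. At least 1.5-fold lower, called or not, were 7 members (2.63% of all tested genes). The values of the 2 groups did not overlap, with 4OHT the lower, for 28 members (30.2% of all tested genes). They did not overlap with 4OHT the higher for 4 members, Ctps2, Rrm1, Rrm2 and Tyms (26.7% of all tested genes).

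The single-gene calls rested on all 4 arrays: without ethanol replicate 1 only Cad was called, and without ethanol replicate 2, 4OHT replicate 1 or 4OHT replicate 2 no member was called, in fits with 1 residual degree of freedom fewer. The members' median change was then -0.38, -0.34, -0.33 and -0.41. With an intensity trend in limma's variance estimate, 20 members were called lower and 2 higher (Ctps2 and Rrm2). That fit called 636 of all 11581 tested genes lower. With every probe set tested as its own feature, 5 members were called lower on any of their probe sets.

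**Figure D1:**
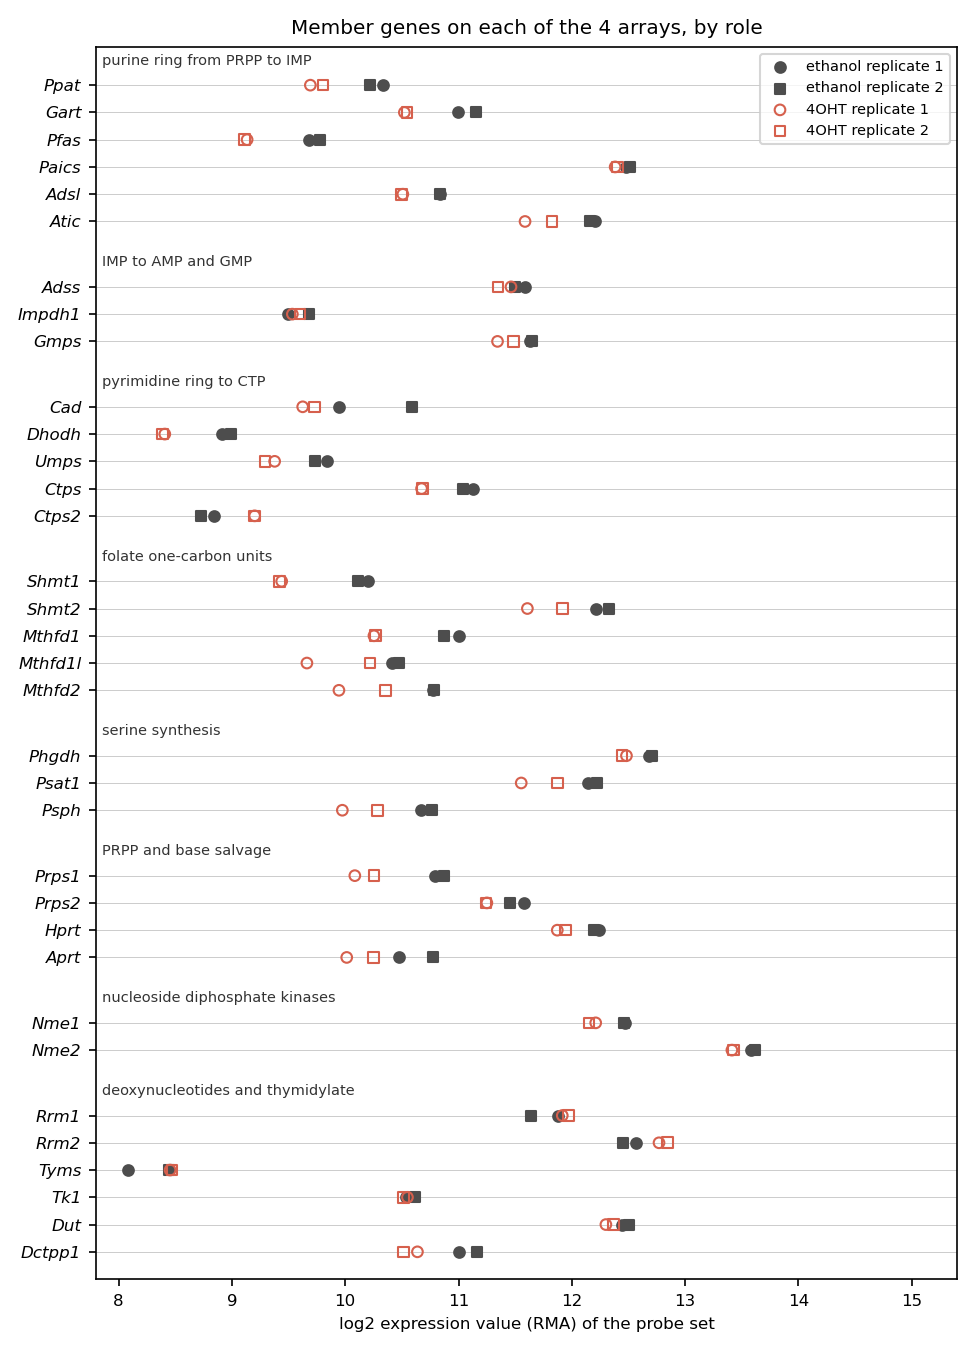
Log2 expression value (RMA, horizontal axis) of each of the 34 member genes on the 4 arrays, grouped by role; filled symbols are ethanol samples, open symbols 4OHT samples, circles replicate 1 and squares replicate 2. The 4OHT symbols lie to the left of the ethanol symbols for 28 genes and to the right for 4.

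The arrays themselves were alike in scale, with medians over all probe sets between 5.12 and 5.14. All 6 Notch readout genes listed for this purpose fell, with changes from -3.41 for Dtx1 to -1.39 for Hes1. Of 14 T-lymphoid markers with a probe set, 12 passed the filter on dim genes, and Cd2 and Cd5 did not; Cd3g and Ptcra fell, and Cd247 and Cd8a rose. Markers of other cell types were mostly under that filter: 9 of 11 myeloid, 5 of 6 NK-cell, 8 of 12 stromal, epithelial and endothelial, 2 of 3 erythroid and 5 of 9 B-cell markers. The B-cell marker Ighm and the endothelial marker Pecam1 rose (0.58 and 0.93). Ighm was far above the filter, at 11.17 and 11.29 with ethanol and at 11.85 and 11.76 with 4OHT. Pecam1 was at 7.65 and 7.78 with ethanol and at 8.54 and 8.74 with 4OHT. The mean level of the B-cell list was 5.14 and 5.20 with ethanol against 5.15 on both 4OHT arrays, and that of the stromal, epithelial and endothelial list 4.57 and 4.55 against 4.62 and 4.60. The 3′ minus 5′ difference of the 18S ribosomal RNA control probe sets differed between the groups (ethanol 0.05 and 0.32, 4OHT 0.90 and 0.82), while that of Actb lay between 0.40 and 0.49 on all arrays; the part of these markers and controls in the results was not tested.

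Promoter letters are shown first for the members whose window holds CACGTG, the E-box that MYC with MAX is known to bind, since MYC is a known regulator of many of these genes. RefSeq windows (build GRCm38.p6) from 250 bases before to 50 after a gene's start were found for 32 of the 35 members. Dhodh and Pfas had none, and Impdh2, with no probe set naming it alone, was not looked up. CACGTG, which reads the same on both strands, stood in the windows of 4 members (12.5%), against 8.09% of 27025 genes. The 4 were Atic and Nme1, shown with the 100 bases before the start, and Tyms and Paics, shown as 30 bases around the motif; capitals mark CACGTG and each line reads 5′ to 3′ on the gene's own strand. The places are chr1:71557056-71557155 (plus strand), chr11:93968273-93968372 (minus strand), chr5:30073669-30073698 (minus strand) and chr5:76951087-76951116 (plus strand), in this order.
Atic: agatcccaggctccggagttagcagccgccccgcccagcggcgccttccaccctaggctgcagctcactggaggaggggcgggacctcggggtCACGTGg
Nme1: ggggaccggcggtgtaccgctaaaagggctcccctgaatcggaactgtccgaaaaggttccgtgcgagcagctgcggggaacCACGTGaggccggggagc
Tyms: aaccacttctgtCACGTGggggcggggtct
Paics: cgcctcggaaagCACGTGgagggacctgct

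The motif began 7 bases before the start in Atic, 18 in Nme1, 61 in Tyms and 203 in Paics. The other of the 2 Nme1 starts had a separate CACGTG, 29 bases before it, which is not printed. None of these 4 genes was called: their changes were -0.48, -0.29, 0.20 and -0.10, in that order. Of the 9 members that fell, 7 had a window and 0 of these windows held CACGTG. With a share of 8.09% over all genes, 7 windows are too few for a comparison. The Paics site lies inside the gene Ppat, 1 of the 9, but outside the Ppat window. The windows reach 250 bases only, so sites further away or inside the gene are not covered.

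Shmt1, the member with the largest fall, is shown with the 200 bases before its start (chr11:60811266-60811465, minus strand), and its mitochondrial counterpart Shmt2 with 100 bases (chr10:127522445-127522544, minus strand). Capitals mark TGGGAA, the core letters of the motif of RBPJ, the DNA-binding partner of Notch, on either strand (TTCCCA is its reverse complement).
Shmt1: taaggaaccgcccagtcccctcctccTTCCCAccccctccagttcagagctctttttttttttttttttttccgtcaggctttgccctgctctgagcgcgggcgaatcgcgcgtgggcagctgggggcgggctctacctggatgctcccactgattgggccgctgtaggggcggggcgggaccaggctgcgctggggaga
Shmt2: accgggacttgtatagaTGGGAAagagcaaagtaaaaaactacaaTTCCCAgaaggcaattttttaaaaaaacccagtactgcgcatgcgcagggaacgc

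TGGGAA stood in the windows of 6 of the 32 members (18.8%), against 28.3% of all genes. The other letters searched, on both strands, were TTTCCCGC and TTTGGCGC (forms of the E2F motif), found for Ppat and Prps2 and for no member, and TGATGNAAT (a form of the motif of ATF4 with C/EBP), found for no member; their shares of all genes were 1.24%, 0.585% and 1.08%. A match is a description of letters and shows no binding.

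Genes of the first steps of purine ring synthesis fell. Of the 6 genes from PRPP to IMP, 3 fell, and all 6 had a change below 0 (3.57% and 52.3% of all tested genes), with a median of -0.50. Ppat, the amidotransferase of the first committed step, was at 10.33 and 10.22 with ethanol and at 9.69 and 9.80 with 4OHT. Its means were 10.28 ± 0.08 and 9.75 ± 0.08 (SD, n = 2 each), a 1.44-fold fall (log2 change -0.53 ± 0.10 SE, limma adjusted p = 0.0359). Gart, a single protein that carries out several steps of the ring's assembly, was at 11.00 and 11.16 with ethanol and at 10.52 and 10.54 with 4OHT. It fell 1.46-fold (-0.54 ± 0.10, adjusted p = 0.0347), and its other 3 probe sets had changes of -0.50, -0.49 and -0.68. Pfas, which adds a glutamine nitrogen, was at 9.68 and 9.78 with ethanol and at 9.13 and 9.11 with 4OHT and fell 1.52-fold (-0.60 ± 0.09, adjusted p = 0.0251). In each of these 3 genes both 4OHT arrays were below both ethanol arrays, and the gap between groups was larger than that between replicates.

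The later purine steps did not pass, and their difference from the first steps was not tested. Adsl, adenylosuccinate lyase, was at 10.83 and 10.84 with ethanol and at 10.51 and 10.49 with 4OHT (-0.33, adjusted p = 0.0739). Atic, which closes the ring to IMP, had a change of -0.48 (adjusted p = 0.0637), with its 4OHT arrays apart at 11.59 and 11.83. Adsl and Atic were called lower with a filter at the 60th percentile, with the replicate number in the fit and with an intensity trend. Neither was called with no filter, quantile normalization or median centring. Paics, the carboxylase and synthetase between the steps of Gart and Adsl, was at 12.47 and 12.52 with ethanol and at 12.38 and 12.40 with 4OHT (-0.10, adjusted p = 0.491; 95% interval -0.31 to 0.11). The RefSeq genes of Paics and Ppat overlap at their starts on chromosome 5, on opposite strands, and the Paics site printed above lies inside Ppat. Their changes were -0.10 and -0.53, and the difference between them was not tested. Beyond IMP, Adss, which commits IMP to AMP, and Gmps, the last enzyme of the GMP branch, had changes of -0.14 and -0.23 (adjusted p = 0.403 and 0.205). Impdh1, the dehydrogenase of the GMP branch, overlapped between groups, at 9.50 and 9.68 with ethanol and at 9.53 and 9.60 with 4OHT (-0.02 ± 0.10, adjusted p = 0.914; 95% interval -0.27 to 0.23).

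Of the 5 genes of pyrimidine synthesis, 2 fell, both on the way to UMP, and 4 had a change below 0 (3.57% and 52.3% of all tested genes). The 2 CTP synthase genes had changes of opposite sign, neither called. Dhodh, the mitochondrial dehydrogenase of the pathway, was at 8.92 and 8.99 with ethanol and at 8.41 and 8.39 with 4OHT and fell 1.47-fold (-0.56 ± 0.09, adjusted p = 0.0279). Umps, which makes UMP from orotate, was at 9.84 and 9.74 with ethanol and at 9.38 and 9.29 with 4OHT and fell 1.37-fold (-0.45 ± 0.09, adjusted p = 0.0469). Without probe sets of the _s_at and _x_at kinds, whose probes can read more than 1 transcript, Dhodh had a change of -0.45 (adjusted p = 0.0823) and Ppat one of -0.41 (adjusted p = 0.106), and Umps, read by the same probe set, just missed the threshold (adjusted p = 0.0503). Umps was also not called with no filter (adjusted p = 0.0636), after quantile normalization (0.0521) or with the mean of its probe sets (0.0646). Cad, the enzyme of the first 3 steps, had a change of -0.59 that did not pass (SE 0.21, adjusted p = 0.16). Its ethanol arrays were far apart, at 9.95 and 10.59, and its 4OHT arrays were at 9.62 and 9.73. The change was -0.92 without ethanol replicate 1 and -0.27 without ethanol replicate 2.

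Ctps, the main CTP synthase gene of proliferating lymphocytes, was at 11.13 and 11.04 with ethanol and at 10.67 and 10.68 with 4OHT (-0.41 ± 0.09, adjusted p = 0.0521). Ctps2 was at 8.84 and 8.73 with ethanol and at 9.20 on both 4OHT arrays (0.41 ± 0.09, adjusted p = 0.0539), and its second probe set above the filter had a change of 0.23. Neither passed at 0.05. The difference between the 2 genes within an array, Ctps minus Ctps2, was 2.29 and 2.32 with ethanol, and 1.47 and 1.49 with 4OHT, a shift of -0.82. The 2 groups of differences did not overlap; an exact two-sided permutation test gave p = 0.333, the smallest that 2 arrays against 2 allow.

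**Figure D2:**
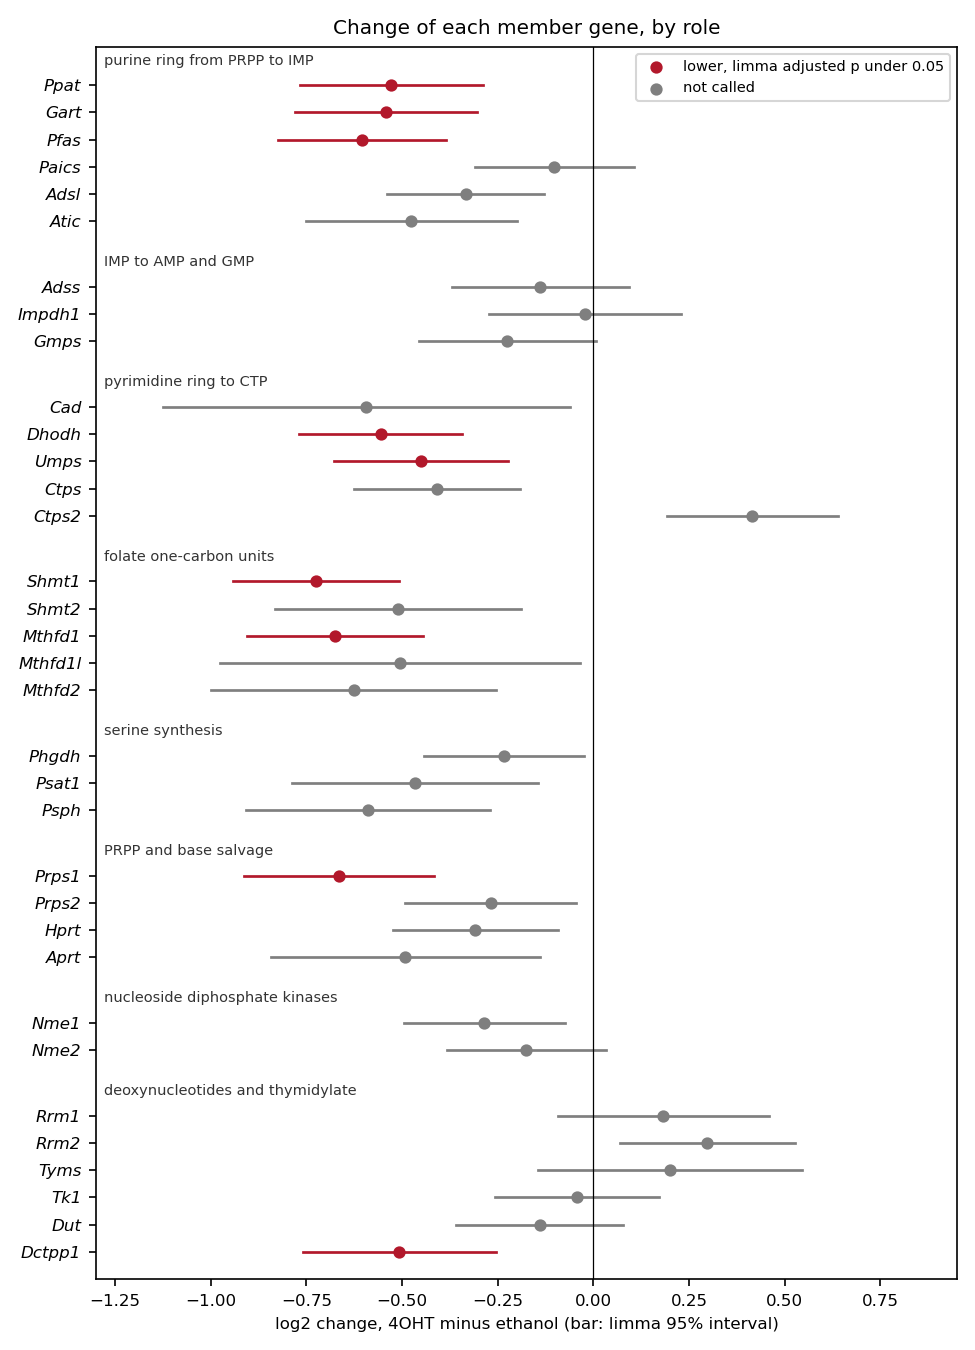
Log2 change (4OHT minus ethanol, horizontal axis) of each member gene with limma's 95% interval, grouped by role; red marks the 9 genes that fell at an adjusted p under 0.05 and grey those not called. Changes of purine, pyrimidine and folate genes lie mostly left of 0, with Ctps2 at 0.41, while Rrm1, Rrm2 and Tyms lie right of it.

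The folate genes that make and carry carbon units had the lowest median of any role, at -0.63. Of these 5 genes, 2 were called lower and all 5 were below 0 (3.57% and 52.3% of all tested genes). Shmt1, the cytosolic serine hydroxymethyltransferase, was at 10.20 and 10.11 with ethanol and at 9.44 and 9.42 with 4OHT. It fell 1.65-fold, from 10.16 ± 0.06 to 9.43 ± 0.01 (SD, n = 2 each; -0.73 ± 0.09 SE, adjusted p = 0.0171). Its other 3 probe sets had changes of -0.79, -0.57 and -0.69. Mthfd1, the cytosolic enzyme that interconverts folate forms, was at 11.01 and 10.87 with ethanol and at 10.25 and 10.27 with 4OHT and fell 1.60-fold (-0.68 ± 0.09, adjusted p = 0.0219), with its other 2 probe sets at -0.68 and -0.63. For both cytosolic enzymes the 4OHT arrays lay close together, below both ethanol arrays.

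The mitochondrial folate enzymes had changes of like size but were uneven between the 4OHT arrays. Shmt2, the mitochondrial serine hydroxymethyltransferase, was at 12.22 and 12.33 with ethanol and at 11.61 and 11.92 with 4OHT (-0.51, adjusted p = 0.0787). Mthfd2, a dehydrogenase and cyclohydrolase raised in many dividing cells, was at 10.77 and 10.78 with ethanol and at 9.94 and 10.36 with 4OHT (-0.63, adjusted p = 0.067). Mthfd1l, which releases formate, was at 10.41 and 10.48 with ethanol and at 9.66 and 10.22 with 4OHT (-0.50, adjusted p = 0.173). For all 3, both 4OHT arrays were below both ethanol arrays (30.2% of all tested genes), and 4OHT replicate 1 was the lowest.

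None of the 3 serine synthesis genes passed, though all had a change below 0 and a limma unadjusted p under 0.05. Of all tested genes, 52.3% had a change below 0, and 13.2% were lower at that p. With an intensity trend all 3 were called lower (adjusted p = 0.0305 for Phgdh, 0.0387 for Psat1 and 0.0235 for Psph), as were 636 of all 11581 tested genes. Psph, the phosphatase of the last step, was at 10.67 and 10.77 with ethanol and at 9.97 and 10.28 with 4OHT (-0.59, adjusted p = 0.0542). Psat1, the aminotransferase before it, was at 12.14 and 12.22 with ethanol and at 11.55 and 11.87 with 4OHT (-0.47, adjusted p = 0.0934). Phgdh, the dehydrogenase that opens the pathway, was at 12.68 and 12.71 with ethanol and at 12.48 and 12.44 with 4OHT (-0.23, adjusted p = 0.158). Psat1 and Psph showed the same order of the 4OHT arrays as the mitochondrial folate genes, and Phgdh did not.

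Across the members, 4OHT replicate 1 lay below replicate 2 by over 0.2 for 7 genes: Mthfd1l, Mthfd2, Psat1, Psph, Shmt2, Atic and Aprt, with gaps from -0.56 to -0.24. It lay above by that much for none, and 21 members were within 0.1. Among all tested genes, 14% lay below by over 0.2 and 11% above, and among the 82 other pathway genes 17 lay below and 3 above. The median size of the gap was 0.07 for members and 0.11 for all tested genes. Atf4, the stress-response transcription factor gene, was at 12.15 and 12.41 with ethanol and at 11.73 and 12.14 with 4OHT (-0.34, adjusted p = 0.269), a gap of -0.41 between the 4OHT arrays. Among the other pathway genes, the gap was -1.25 for Cth (cystathionine gamma-lyase), -0.74 for the adenylate kinase Ak4, -0.72 for Glul (glutamine synthetase) and -0.71 for Asns (asparagine synthetase), the 4 lowest, and 0.31 for Dctd, the highest. These genes and the threshold of 0.2 were chosen after their values were seen, and what differed between the 4OHT samples was not tested.

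**Figure D3:**
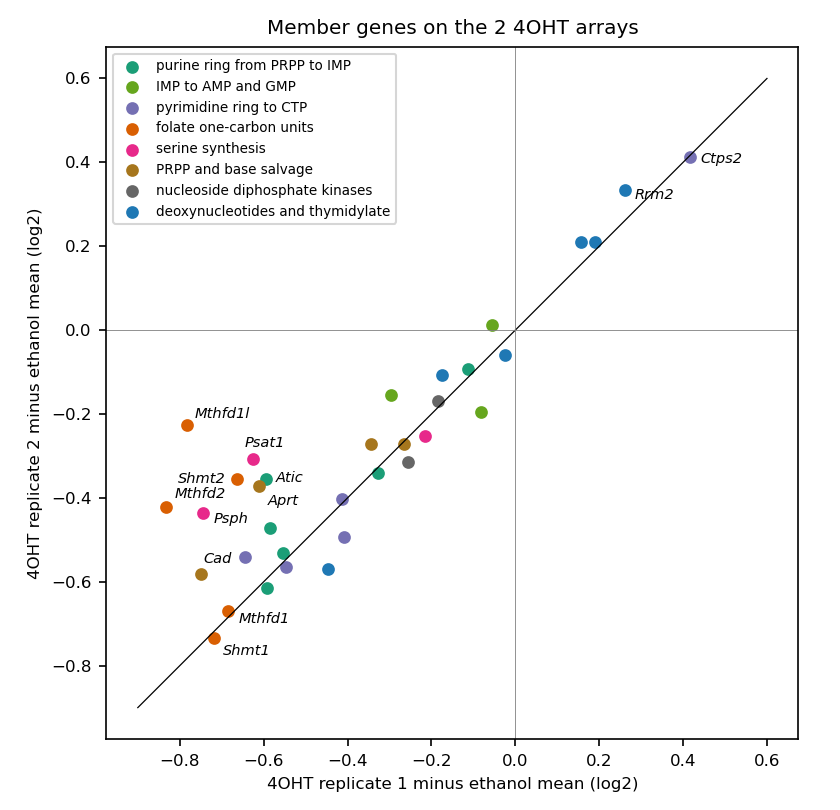
Each member gene's value on 4OHT replicate 1 (horizontal axis) and 4OHT replicate 2 (vertical axis), both as the log2 difference from the mean of the ethanol arrays, coloured by role, with the line of equal values. Mthfd1l, Mthfd2, Psat1, Psph and Shmt2 lie above the line, lower on replicate 1, while Shmt1, Mthfd1 and Ctps2 lie close to it.

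Of the 4 genes for PRPP and base salvage, 1 fell and all 4 had a change below 0 (3.57% and 52.3% of all tested genes), with a median of -0.40. Prps1, a PRPP synthetase, was at 10.79 and 10.87 with ethanol and at 10.08 and 10.25 with 4OHT and fell 1.59-fold (-0.66 ± 0.10, adjusted p = 0.0266). Its paralog Prps2, a known MYC target, had a change of -0.27 (adjusted p = 0.137). Prps1 minus Prps2 was -0.78 and -0.59 with ethanol and -1.17 and -0.99 with 4OHT (exact two-sided permutation p = 0.333, the smallest possible; adjusted over the 5 gene pairs compared, 0.417, as for Ctps and Ctps2). The other 3 pairs shifted by -0.11 (Nme1 minus Nme2), -0.22 (Shmt1 minus Shmt2) and 0.12 (Mthfd1l minus Mthfd2), with exact p from 0.333 to 0.667. The salvage enzymes Hprt, for hypoxanthine and guanine, and Aprt, for adenine, had changes of -0.31 and -0.49 (adjusted p = 0.0959 and 0.101). Nme1 and Nme2, the kinases that raise nucleoside diphosphates to triphosphates, had changes of -0.29 and -0.18 (adjusted p = 0.107 and 0.256). The groups did not overlap for either, with 4OHT the lower, as for 30.2% of all tested genes. Nme1 and Nme2 are close in sequence, and probes of 1 may read the other.

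The 6 members placed under DNA precursors were not lower as a group. Of these 6 genes, Dctpp1 fell and none rose. Their changes were above 0 for 3 and below 0 for 3, with a median of 0.07, against -0.63 to -0.14 for the other 7 roles. The difference between roles was not tested. Dctd, which makes the dUMP used by thymidylate synthase, was counted in the salvage list below and fell (-1.26, limma adjusted p = 0.0121). Rrm2, the small subunit of ribonucleotide reductase, was at 12.56 and 12.45 with ethanol and at 12.77 and 12.84 with 4OHT (0.30 ± 0.09, adjusted p = 0.116), and its other 2 probe sets had changes of 0.30 and 0.29. Rrm1, the large subunit, was at 11.88 and 11.64 with ethanol and at 11.92 and 11.97 with 4OHT (0.18, adjusted p = 0.358), and its next brightest probe set overlapped between groups (0.04). Tyms, thymidylate synthase, was at 8.08 and 8.45 with ethanol and at 8.45 and 8.47 with 4OHT (0.20, adjusted p = 0.415). Its ethanol arrays were further apart than its group means, and without ethanol replicate 1 its change was 0.02.

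Tk1, thymidine kinase, overlapped between groups (-0.04, adjusted p = 0.799; 95% interval -0.26 to 0.17). Dut, which removes dUTP, had a change of -0.14 (adjusted p = 0.367) and -0.41 on its second probe set. Dctpp1, which breaks down dCTP and modified forms of it, was at 11.01 and 11.16 with ethanol and at 10.64 and 10.51 with 4OHT and fell 1.42-fold (-0.51 ± 0.10, adjusted p = 0.0456); it was not called when dim genes were kept (adjusted p = 0.0574) or after quantile normalization (0.0521). None of 27 tested S phase marker genes was called by limma at an adjusted p under 0.05, and at an unadjusted p under 0.05 there were 3 lower and 0 higher (13.2% and 12.3% of all tested genes). Of the 27, 22 had a change below 0 and 14 had both 4OHT arrays below both ethanol arrays (52.3% and 30.2% of all tested genes). Their median change was -0.08, with a range from -0.34 for E2f1 to 0.20 for Slbp.

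Probe sets of the same member gave the same sign. Beside the 34 probe sets used, members had 43 others, of which 38 were above the filter, and all 38 had a change of the same sign as the one used. For the members that fell, 12 of these 12 had both 4OHT arrays below both ethanol arrays (30.2% of all tested genes). These members were called on the same arrays, so this count was largely set beforehand. Probe sets of 1 gene share the RNA of their array and are not replicates.

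Among 82 other tested genes of the pathway, from 4 lists of salvage, folate, serine and nitrogen or ribose supply, 10 fell and none rose in limma (12.2% lower), and their median change was -0.14; before adjustment, 29 were lower and 5 higher at p under 0.05 (13.2% and 12.3% of all tested genes). In the salvage, kinase and breakdown list, 5 of 35 fell (14.3%, against 3.57% of all tested genes). Dctd, the deaminase that turns dCMP into the dUMP used by thymidylate synthase, was at 8.09 and 7.98 with ethanol and at 6.93 and 6.62 with 4OHT and fell 2.40-fold (-1.26 ± 0.13, adjusted p = 0.0121). Adenosine kinase (Adk) fell 1.63-fold, guanylate kinase (Guk1) 1.55-fold and the adenylate kinase Ak5 1.78-fold (adjusted p = 0.0186, 0.0202 and 0.0279). When all probe sets of each gene were averaged, Adk had a change of -0.31 (adjusted p = 0.0871) and Ak5 one of -0.47 (0.0526), and neither was called. The Ak5 value was near the filter, at 5.04 and 5.26 with 4OHT against a floor of 4.81. In the folate list 3 of 16 fell (18.8%), all in uptake or retention. Slc19a1, the reduced folate carrier, was at 9.10 and 8.90 with ethanol and at 8.23 and 8.26 with 4OHT and fell 1.68-fold (-0.75 ± 0.10, adjusted p = 0.0218). Slc25a32, the mitochondrial folate carrier, and Fpgs, which adds the glutamates that hold folate in the cell, fell 1.33-fold each (adjusted p = 0.0493 and 0.0478). Neither was called with no filter (adjusted p = 0.0703 and 0.0701), and Slc25a32 had a change of -0.27 with the mean of its probe sets (0.276).

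In the serine and glycine list 1 of 17 fell (5.88%, against 3.57% of all tested genes). This was Gcsh, a carrier protein of the glycine cleavage system, at 11.07 and 10.90 with ethanol and at 10.28 and 10.14 with 4OHT (1.72-fold, adjusted p = 0.0217). Slc1a4, a transporter of serine and other neutral amino acids, had a change of -0.62 (adjusted p = 0.0522). In the glutamine, aspartate and pentose phosphate list 1 of 14 fell (7.14%): Got1, the cytosolic aspartate aminotransferase, 1.56-fold (adjusted p = 0.0325). The counts of these lists rested on all arrays as well: leaving out 1 array left 0 to 2 of the 82 genes called lower, and with an intensity trend 17 were called lower and 1 higher.

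**Figure D4:**
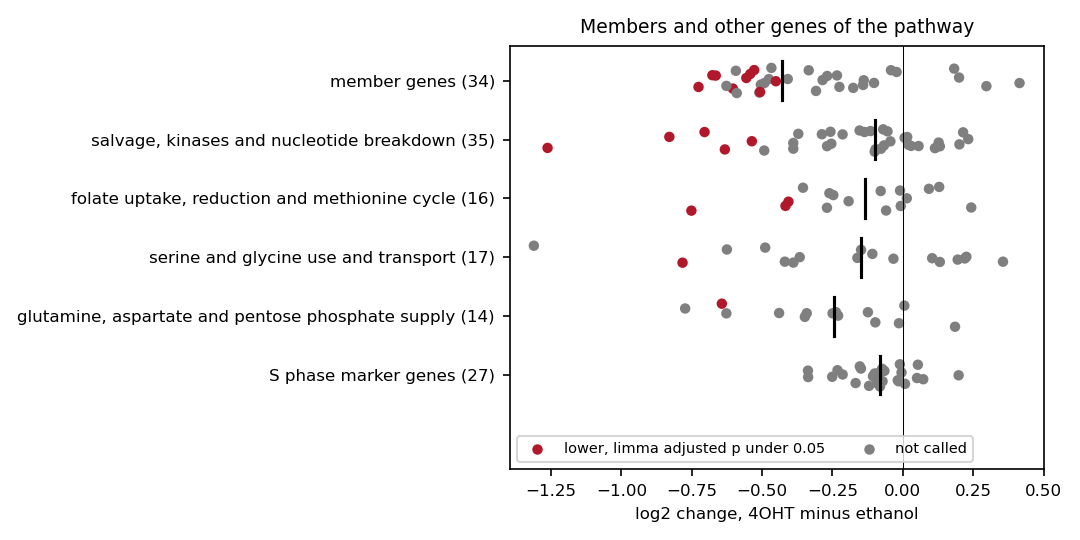
Log2 change (4OHT minus ethanol, horizontal axis) of each tested gene of the member set, of 4 other pathway lists and of the S phase markers, with the number of genes in brackets; black bars are medians and red marks genes that fell at an adjusted p under 0.05. The members' median of -0.43 lies left of those of the other lists, which run from -0.24 to -0.08; vertical scatter only separates the points.

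Of the 7 tested regulator genes, only Myc passed. Myc was at 11.63 and 11.94 with ethanol and at 10.96 and 11.12 with 4OHT, a 1.67-fold fall (-0.74 ± 0.13, adjusted p = 0.0358); with any 1 array left out it was not called (adjusted p from 0.0591 to 0.167). Its paralog Mycn was at 13.59 and 13.69 with ethanol and at 13.91 and 13.83 with 4OHT (0.23, adjusted p = 0.187). E2f2, an activator of S phase genes, had a change of 0.42 (adjusted p = 0.0687). E2f3, Mlxip and Mtor overlapped between groups, with changes of -0.09, 0.14 and 0.00. Whether Myc had a part in the changes of the members was not tested.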

How the data were processed

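RNA of 4 samples of 1 lymphoma line was measured on Affymetrix arrays. The deposited values are log2 expression per probe set, made by the authors with RMA (background correction, normalization and summary over probes), per the submitters' processing notes; its version is not given in the sources. Probe sets were named from the platform annotation: of 45101, 34945 named 1 gene, 932 several and 9224 none, counting 64 control probe sets among the last. Per gene the probe set with the highest mean was kept, and genes under the 40th percentile of named probe sets (log2 4.81) were not tested. limma 3.58.1 in R 4.3.3 (lmFit, eBayes) compared 4OHT with ethanol, with Benjamini-Hochberg adjustment over 11581 genes and genes with an adjusted p under 0.05 were called; ± is an SD for group means and an SE for changes. The number of arrays limits the precision. The method was tested on simulated data. All members were accounted for by role; of other lists, up to 4 called genes with the largest change and the tested regulators were named, and Asns, Cth, Ak4, Glul, Slc1a4 and promoter examples were picked after values were seen. Members and lists were chosen with earlier results of these data known. Alternatives covered the filter, scaling, probe set rule, variance prior, replicate block, threshold and each array left out.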

Additional observations from a re-analysis of the deposited data

How the results depend on the processing

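Of the 34 members, 33 kept the direction of their change in every alternative run. Impdh1 did not, at 0.067 without ethanol replicate 2 and 0.011 without 4OHT replicate 1. The filter, replicate block, intensity trend and threshold leave a log2 change as it is. With every probe set tested, the log2 change was read from the same probe set per member, while a member counted as called if any of its probe sets passed. Only scaling, the probe set rule and leaving out an array could change a direction. Members called lower and higher (9 and 0) became 7 and 0 with no filter and with quantile normalization (both without Umps and Dctpp1), 13 and 1 with a filter at the 60th percentile, 19 and 1 with the replicate block, 20 and 2 with an intensity trend, 5 and 0 with every probe set tested as its own feature, and 17 and 1 at an adjusted p under 0.1; at least 1.5-fold and adjusted p under 0.05 left 4. For the 82 other pathway genes (10 and 0) the numbers were 24 and 1 with the block, 17 and 1 with the trend, 6 with every probe set, and 19 and 1 at the looser threshold. Without _s_at and _x_at probe sets, an alternative added after the data were seen, 6 members were called lower. With the mean of all probe sets, 9 members were called lower, without Ppat and Umps and with Ctps and Psph instead. The medians were then -0.35 (members) and -0.11 (others). Leaving out 1 array gave 0 to 1 members and 0 to 2 others called lower, with medians of -0.41 to -0.33 and -0.18 to -0.093. All 9 called members stayed called with the block and with the trend, which called 1031 and 636 of all genes lower. Of all 11581 genes, 413 were called lower and 452 higher in the main fit, and the block called 1104 higher. Quantile normalization gave 427 lower and 431 higher. With no filter there were 343 lower and 405 higher of 18193 genes, and at the 60th percentile 508 and 500 of 8356. Replicate 1 deviations of the 2 groups correlated at 0.34 over 11581 genes; with 2 pairs and no label of a shared culture or day, the numbers were not taken as pairing. No batch label or scan date was used here, and signal over background is not given by RMA values; dim genes are limited most.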
